A study of Mus musculus with 16 samples.

Results

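The transcripts of 10 biliary and progenitor marker genes (Krt7, Krt8, Krt18, Krt19, Krt23, Sox9, Epcam, Spp1, Cd24a and Prom1) were followed through the livers of wild type and Gadd45b mutant mice that received a carcinogen with or without a tumour promoter. The genes were chosen by name, with earlier results of these data known. All 15 probes whose RefSeq accession maps to these symbols were taken from an array with probes for 19096 named genes. Of the 15 probes, 14 passed the filter on dim signals, so that each of the 10 genes had a tested probe among the 13303 genes tested. Signals of 11 of the probes were well above background on all 16 arrays. The design held 4 groups of 4 male mice with 1 array per mouse. Wild type (WT) mice were C57BL/6J, and the knockout (KO) mice carried a null allele of Gadd45b, a stress-induced gene of the growth arrest and DNA damage family. All mice, controls included, were injected once with the liver carcinogen diethylnitrosamine (DEN) when 5 weeks old, at 90 mg/kg. In the DEN + PB groups the drinking water also held phenobarbital (PB), a promoter of liver tumours that acts through the nuclear receptor CAR, at 0.5 g/l from week 7 on, and in the DEN groups it did not. RNA was prepared at 57 weeks from liver outside the tumours. The study places the null mice on C57BL/6J in 1 passage, while the catalogue name of their stock includes a further strain, and a part of strain differences in the genotype comparisons was not tested.

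Cholangiocytes, the epithelial cells that line the bile ducts, carry a keratin pair that hepatocytes do not make in health (Krt7 and Krt19) and share another pair with hepatocytes (Krt8 and Krt18). After chronic injury, cells with biliary and progenitor features spread from the portal tracts, and Sox9, Epcam, Spp1, Cd24a, Prom1 and Krt23 are among the markers used to follow this ductular reaction. No marker belongs to 1 cell type alone: Spp1 is also made by macrophages, Cd24a by leukocytes and red cell precursors. In whole liver RNA, fewer cells of a type and less RNA per cell cannot be told apart.

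Start sites of 7 of the 10 genes had an entry in the RefSeq promoter table (assembly GRCm38.p6), and 3 upstream windows of 250 bases are shown because these genes had different patterns over the groups: Krt7 and Epcam were lowest relative to WT in KO mice on PB, and Krt23 was lowest in KO mice without PB. Capitals mark GGGCGG (the GC box) on either strand in Krt7 and Epcam, and ACAATG (a SOX type motif) in Krt23.
Krt7 chr15:101412153-101412402 (+ strand): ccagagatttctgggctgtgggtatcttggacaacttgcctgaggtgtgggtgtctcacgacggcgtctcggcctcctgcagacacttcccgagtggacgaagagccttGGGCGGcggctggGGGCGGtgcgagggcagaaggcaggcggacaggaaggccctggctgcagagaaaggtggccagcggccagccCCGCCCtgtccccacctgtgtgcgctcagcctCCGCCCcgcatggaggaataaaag
Epcam chr17:87635729-87635978 (+ strand): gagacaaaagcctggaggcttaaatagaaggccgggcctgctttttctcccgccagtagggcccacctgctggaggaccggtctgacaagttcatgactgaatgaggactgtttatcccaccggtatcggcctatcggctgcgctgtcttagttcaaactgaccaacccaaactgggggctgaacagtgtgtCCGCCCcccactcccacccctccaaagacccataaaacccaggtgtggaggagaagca
Krt23 chr11:99493121-99493370 (- strand): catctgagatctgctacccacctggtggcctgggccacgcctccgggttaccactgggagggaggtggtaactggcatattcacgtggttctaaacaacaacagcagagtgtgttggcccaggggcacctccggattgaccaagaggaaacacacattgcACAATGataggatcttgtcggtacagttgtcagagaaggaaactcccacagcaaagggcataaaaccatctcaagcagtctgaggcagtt
The Krt7 window was the richest of these 3 in GC (66.0%, against 56.4% for Epcam and 52.8% for Krt23) and held 4 copies of GGGCGG, while that of Epcam held 1 and that of Krt23 none. GGGCGG occurred in 3 of the 7 genes (Krt7, Epcam and Prom1) and in 32.7% of the 32851 promoters of the table. ACAATG occurred in 1 of the 7 and in 10.7% of the promoters. A link between these motifs and the patterns over the groups was not tested. None of the windows of the 7 genes held GGAATG, a motif of the TEAD factors (12.6% of all promoters), and 1 (Krt8) held GTGGGAA, a motif of the Notch effector RBPJ (5.42%). The nuclear receptor motif AGGTCA (14.0% of promoters) was found in 2 of the 7, Krt8 and Krt18, which lie next to each other on chromosome 15 with 0 coding genes between them. Both strands were searched, and a match of letters is a description of the window, not a binding site.

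Levels are given as log2 signal relative to the 75th percentile of the array, so that a value of 0 is a spot at that percentile and a difference of 1 is a doubling. They compare arrays for 1 probe, not genes with each other. The 75th percentile of the signal was between 137 and 294, 58.3% to 67.7% of spots were well above background, and arrays within a group had an r of 0.974 to 0.992 across probes. The number of arrays limits the precision. Gadd45b itself was above background on 8 of 8 arrays labelled WT and on 0 of 8 labelled KO. Hepatocyte genes were well above background on all arrays (11 of 11 with a probe), whereas 0 of 6 mesothelial genes were, and of the 22 other cholangiocyte genes listed 11 were and 3 were on no array. WT DEN replicate 3 stood apart. Its summed macrophage signal was 223 times the 75th percentile, against 58.1 to 81.4 on the other arrays of its group, and differences from WT DEN are also given without it for the markers that it moved most.

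Keratin 19, the filament protein most used to mark bile ducts, was measured at -3.37, -3.18, -2.75 and -2.47 on the 4 WT DEN arrays and at -1.96, -1.58, -1.57 and -1.58 on the 4 WT DEN + PB arrays. In KO, the values of Krt19 were -2.30, -2.18, -2.76 and -2.32 under DEN and -2.65, -2.66, -2.67 and -2.44 under DEN + PB. The 4 WT arrays with PB therefore lay above the other 12. Keratin 7, the other duct keratin, was at -2.46, -2.17, -1.58 and -1.89 in WT DEN and at -1.33, -0.90, -0.65 and -0.61 in WT DEN + PB. Krt7 values in KO were -1.81, -1.51, -2.21 and -1.67 under DEN and -1.88, -2.40, -1.72 and -1.71 under DEN + PB. As for Krt19, the 4 WT arrays with PB were above all others, and the KO groups overlapped. A second, dimmer Krt7 probe ranged from -4.99 to -4.03 in WT DEN, -4.18 to -3.80 in WT DEN + PB, -4.97 to -3.48 in KO DEN and -4.91 to -4.33 in KO DEN + PB.

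**Figure D1:**
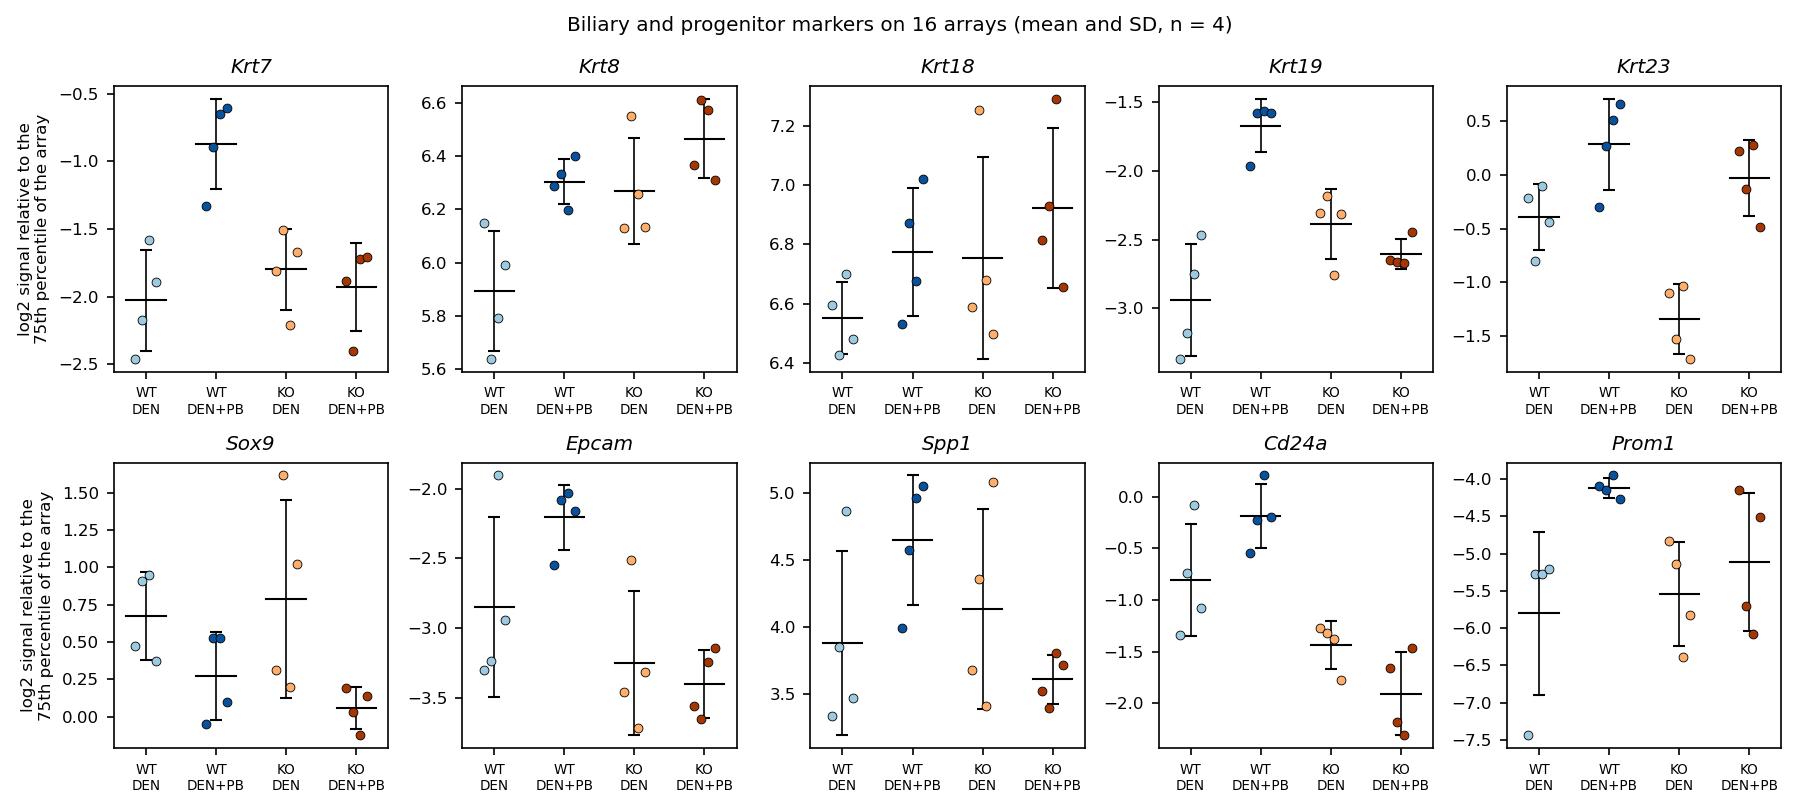
Level of each of the 10 genes (brightest probe) on the 16 arrays, as log2 signal relative to the 75th percentile of the array, with 1 point per mouse and a bar for the mean and SD of each group (n = 4). Each panel has its own scale, which does not start at 0. For Krt7, Krt19 and Epcam the KO DEN + PB points lie below all WT DEN + PB points, and for Krt23 the KO DEN points lie below all other points.

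Among the surface proteins, Epcam, an epithelial adhesion molecule, was at -3.30, -3.24, -1.90 and -2.94 in WT DEN and at -2.55, -2.08, -2.03 and -2.16 in WT DEN + PB. Its values in KO were -3.46, -2.51, -3.72 and -3.31 under DEN and -3.56, -3.65, -3.25 and -3.14 under DEN + PB. The WT groups overlapped because WT DEN replicate 3 was the highest of the WT arrays, and with PB the genotypes were apart. Cd24a, a small glycoprotein anchored in the membrane, was at -1.33, -0.73, -0.08 and -1.08 in WT DEN and at -0.55, -0.22, 0.21 and -0.19 in WT DEN + PB. In KO, Cd24a was at -1.27, -1.32, -1.38 and -1.77 under DEN and at -1.66, -2.18, -2.31 and -1.47 under DEN + PB. All WT arrays with PB were above all 8 KO arrays, and the highest WT DEN value was again that of replicate 3. Prom1, a membrane protein used as a progenitor marker, was near the limit of detection: arrays on which its brighter probe exceeded background were 2 of 4 in WT DEN, 4 of 4 in WT DEN + PB, 1 of 4 in KO DEN and 2 of 4 in KO DEN + PB. Prom1 values ran from -7.44 to -5.21 in WT DEN, from -4.27 to -3.95 in WT DEN + PB, from -6.38 to -4.84 in KO DEN and from -6.08 to -4.14 in KO DEN + PB. Both Prom1 probes passed the filter only through WT DEN + PB, the group in which they were highest, so their direction gives no support to a count over the genes.

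Spp1 (osteopontin), a secreted matrix protein, was at 3.34, 3.85, 4.86 and 3.47 in WT DEN and at 3.99, 4.57, 4.96 and 5.05 in WT DEN + PB. Spp1 values in KO were 3.68, 4.36, 3.41 and 5.08 under DEN and 3.52, 3.40, 3.80 and 3.71 under DEN + PB. The KO arrays with PB were all below the WT arrays with PB, and the other groups overlapped. Krt23, an acidic keratin, had a different order: -0.21, -0.80, -0.11 and -0.44 in WT DEN against -1.10, -1.52, -1.04 and -1.71 in KO DEN. With PB, Krt23 was at -0.30, 0.27, 0.51 and 0.66 in WT and at 0.22, -0.13, 0.28 and -0.48 in KO. The KO DEN arrays were below the other 12, and with PB the genotypes overlapped.

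The transcription factor Sox9 and the keratins shared with hepatocytes are given by their ranges. The brightest Sox9 probe ranged from 0.37 to 0.95 in WT DEN, -0.05 to 0.53 in WT DEN + PB, 0.20 to 1.62 in KO DEN and -0.13 to 0.19 in KO DEN + PB. Another Sox9 probe was well above background on 2 of 16 arrays and was not tested. Krt8, a type II keratin, was between 5.64 and 6.15 in WT DEN, 6.20 and 6.40 in WT DEN + PB, 6.13 and 6.55 in KO DEN and 6.31 and 6.61 in KO DEN + PB, and on both its probes WT DEN had the lowest and KO DEN + PB the highest mean. Krt18, the partner of Krt8, was between 6.43 and 7.29 over all arrays, with overlap of all 4 groups.

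The effect of PB was measured first in WT, as DEN + PB minus DEN. Krt19 rose 2.41-fold (log2 difference 1.27 ± 0.19 (SE); limma adjusted p = 0.00208) and Krt7 rose 2.23-fold (1.16 ± 0.23; limma adjusted p = 0.022). These were 2 of the 10 genes that passed both thresholds (adjusted p below 0.05 and at least 1.5-fold), where 0.654% of all genes tested were called higher (0.737% in either direction). Without WT DEN replicate 3, Krt19 differed by 1.33 (limma adjusted p = 0.00435) and Krt7 by 1.30 (limma adjusted p = 0.0113). On the 3 slides that held both groups, the Krt19 difference was between 0.79 and 1.79 and that of Krt7 between 0.26 and 1.56. The Krt7 call was lost in 8 of 10 alternative settings and without each of 5 arrays, all WT, with adjusted p of up to 0.0953 in the latter. The dimmer Krt7 probe differed by 0.64 ± 0.27 (limma adjusted p = 0.608) and was not called. With normexp background correction the Krt19 difference was 0.33, or 0.48 without outlying backgrounds, and was not called. Normexp also added an offset of 50 to the signals, so it does not test background correction alone. The mean processed signal of Krt19 was 29.8 in WT DEN and 74.5 in WT DEN + PB. The part of the offset in the smaller difference was not tested.

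No other marker was called in WT. The differences were 0.76 ± 0.36 for Spp1, 0.67 ± 0.24 for Krt23, 0.64 ± 0.29 for Epcam and 0.62 ± 0.26 for Cd24a, with limma adjusted p of 0.691, 0.399, 0.658 and 0.585. Without WT DEN replicate 3 the difference of Spp1 was 1.09 (limma adjusted p = 0.273), that of Epcam 0.95 (0.128) and that of Cd24a 0.86 (0.166). The brightest Krt8 probe (0.41 ± 0.15, limma adjusted p = 0.403) had no overlap between the groups. Its p was the smallest that an exact two-sided permutation test of 4 against 4 arrays can give (0.0286). On the second Krt8 probe (0.38 ± 0.16, limma adjusted p = 0.586) the groups overlapped. Prom1 had no overlap (1.68 ± 0.50, limma adjusted p = 0.219). Its second probe, on 0 of 4 WT DEN arrays well above background, was at least 2.58-fold higher with PB (limma adjusted p = 0.219). Sox9 differed by -0.40 ± 0.26 (limma adjusted p = 0.856) and Krt18 by 0.22 ± 0.18 (limma adjusted p = 0.914). In all, 8 of the 9 genes other than Prom1 had a positive difference, with a median of 0.64 beside -0.02 over all genes tested. On the brightest probe the groups did not overlap for 3 of the 9, where 3.21% of all genes had no overlap in this direction.

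The same difference was then taken in KO. Krt23 rose 2.48-fold (1.31 ± 0.24; limma adjusted p = 0.00811), 1 of the 10 genes called, where 1.26% of all genes were called higher and 2.13% in either direction. Its difference was between 0.96 and 1.65 on the 3 slides with both groups, and the call was lost under normexp (0.90, limma adjusted p = 0.108) and with the series table without scaling (1.02, limma adjusted p = 0.0975). Krt19 differed by -0.22 ± 0.19 (limma adjusted p = 0.767) and Krt7 by -0.13 ± 0.23 (limma adjusted p = 0.926), and both signs turned under normexp. Sox9 was lower by 0.73 ± 0.26 on the log2 scale on its brightest probe, which was not past the threshold (limma adjusted p = 0.22), with groups that just failed to overlap (0.20 against 0.19 at their nearest). A second Sox9 probe with 10 spots per array differed by -0.74 ± 0.28 (limma adjusted p = 0.249). For Epcam, Spp1 and Cd24a the differences were -0.15 ± 0.29, -0.52 ± 0.36 and -0.47 ± 0.26, with limma adjusted p of 0.936, 0.662 and 0.517. Krt8 (0.20 ± 0.15), Krt18 (0.17 ± 0.18) and Prom1 (0.43 ± 0.50) were not called either. The second Krt8 probe differed by 0.21 ± 0.16 (limma adjusted p = 0.712). The median over the 9 genes other than Prom1 was -0.15, beside 0.01 over all genes.

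**Figure D2:**
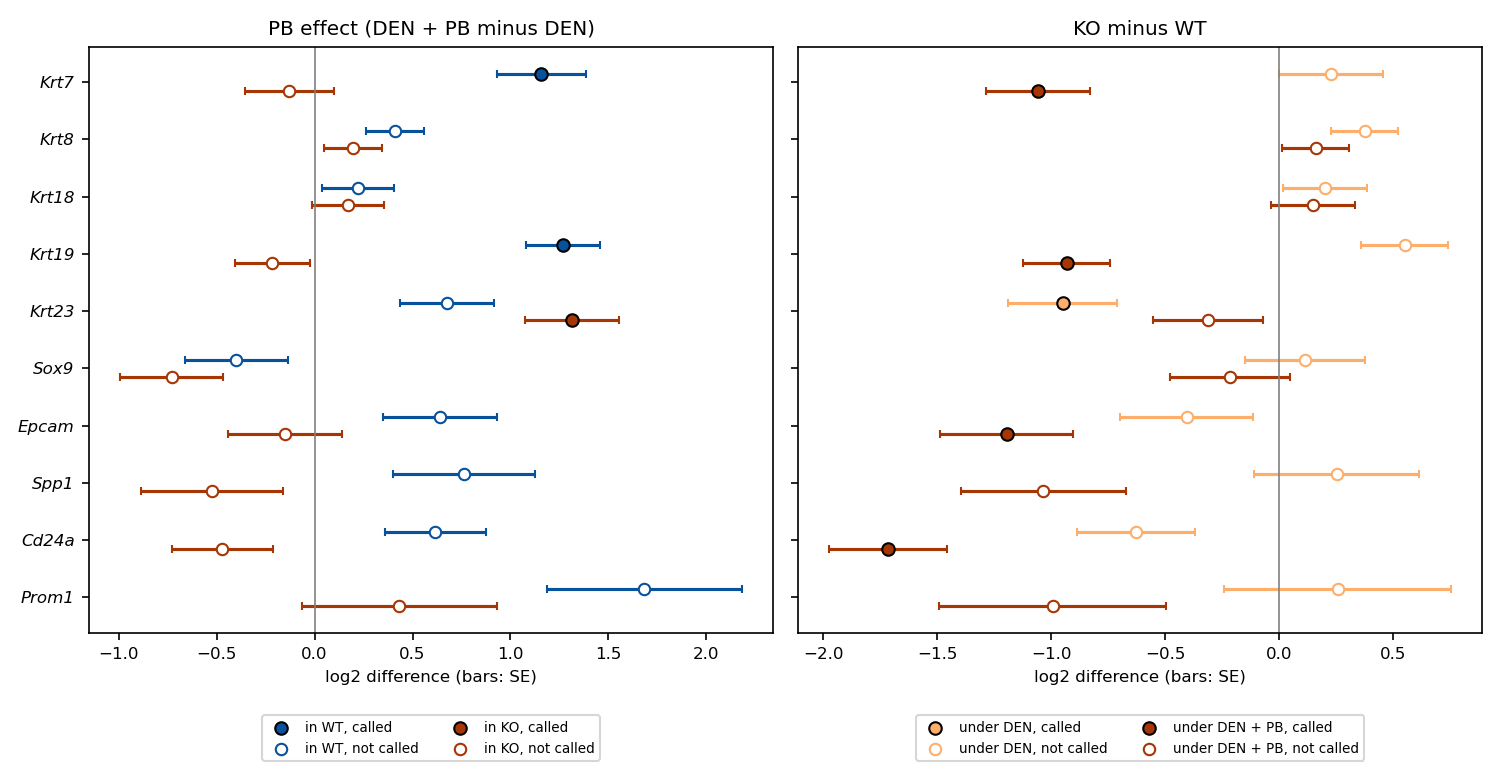
Fitted log2 differences of the 10 genes with SE, on the left DEN + PB minus DEN in each genotype and on the right KO minus WT under each treatment; filled points passed an adjusted p of 0.05 and a 1.5-fold change. Krt7 and Krt19 are to the right of 0 in WT with PB and to the left in the comparison of genotypes under PB, which share the WT DEN + PB arrays. Krt23 is filled for PB in KO and for KO minus WT under DEN, which share the KO DEN arrays.

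Whether PB acted differently in the genotypes was tested by the interaction, the PB difference in WT minus that in KO. By limma 0 of the 10 genes were called, as for all genes tested (0.0%), and 4 of the 10 had an unadjusted p under 0.05 (880 of 13303 over all genes). The interaction was 1.48 ± 0.27 for Krt19 (limma adjusted p = 0.162), 1.29 ± 0.32 for Krt7 (0.325), 1.29 ± 0.51 for Spp1 (0.712), 1.09 ± 0.37 for Cd24a (0.539) and 0.79 ± 0.41 for Epcam (0.883). For Prom1, Sox9, Krt8 and Krt18 it was 1.25 ± 0.70, 0.33 ± 0.37, 0.21 ± 0.21 and 0.06 ± 0.26. Krt23 was the exception in sign (-0.64 ± 0.34, limma adjusted p = 0.888). The median was 0.79 over the 9 genes other than Prom1 and -0.04 over all genes. The rise of Krt7 and Krt19 in WT is thus not shown to differ from the change in KO after correction over all probes.

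Genotypes were then compared without PB. Under DEN, Krt23 was 1.93-fold lower in KO (-0.95 ± 0.24; limma adjusted p = 0.0422), 1 of the 10 genes called, where 1.74% of all genes were called lower (2.76% in either direction). Both slides that held the 2 groups gave a negative value (-1.31 and -0.99). The call was near the threshold: it was lost in 7 of 10 alternatives and without each of 8 arrays, with adjusted p of up to 0.129, reached without WT DEN replicate 3. Krt19 was higher in KO by 0.55 ± 0.19 (limma adjusted p = 0.118) and Krt8 by 0.38 ± 0.15 (limma adjusted p = 0.161), and Cd24a lower by 0.63 ± 0.26 on the log2 scale (limma adjusted p = 0.184), none of them past the threshold. The second Krt8 probe was higher in KO by 0.48 ± 0.16 (limma adjusted p = 0.111). Epcam differed by -0.41 ± 0.29, Spp1 by 0.25 ± 0.36, Krt7 by 0.23 ± 0.23 and Krt18 by 0.20 ± 0.18, with limma adjusted p of 0.462 to 0.744. Sox9 (0.11 ± 0.26) and Prom1 (0.26 ± 0.50) were not called either. WT DEN replicate 3 was the highest array of its group for Epcam, Cd24a and Spp1, and without it Epcam differed by -0.09 (limma adjusted p = 0.897), Cd24a by -0.39 (0.462) and Spp1 by 0.58 (0.437). The median over the 9 genes other than Prom1 was 0.20, beside -0.04 over all genes. The KO DEN arrays, on which Krt23 was lowest, are shared with the PB effect in KO, so its 2 calls are not independent.

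With PB, the genotypes differed in 4 of the 10 genes, all lower in KO, where 5.84% of all genes were called lower (7.6% in either direction). Cd24a was 3.28-fold lower (-1.72 ± 0.26; limma adjusted p = 0.000904), Epcam 2.29-fold lower (-1.20 ± 0.29; limma adjusted p = 0.0202), Krt7 2.08-fold lower (-1.06 ± 0.23; limma adjusted p = 0.0098) and Krt19 1.91-fold lower (-0.93 ± 0.19; limma adjusted p = 0.00734). For each of the 4 the groups did not overlap and the difference was negative on 4 of 4 slides, from -2.52 to -1.24 for Cd24a, -1.40 to -1.06 for Epcam, -1.27 to -0.81 for Krt7 and -1.10 to -0.70 for Krt19. Cd24a remained called in all 10 alternatives and without each of the 16 arrays. The Epcam call was lost in 3 of 10 alternatives and without each of 4 arrays (KO DEN + PB replicate 2 and WT DEN + PB replicates 2, 3 and 4), with adjusted p of up to 0.0665 in the latter. Calls of Krt7 and Krt19 were lost under both normexp settings. The dimmer Krt7 probe differed by -0.68 ± 0.27 (limma adjusted p = 0.151).

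Spp1 was 2.05-fold lower in KO under PB without reaching the threshold (-1.03 ± 0.36; limma adjusted p = 0.0997), although its groups did not overlap (exact two-sided permutation p = 0.0286) and 4 of 4 slides gave a negative value. It was called in 2 alternatives, with only the 8 arrays compared (limma adjusted p = 0.0295) and with the series table without scaling (limma adjusted p = 0.0308). The remaining keratins were not called: Krt23 differed by -0.31 ± 0.24, Krt8 by 0.16 ± 0.15 and Krt18 by 0.15 ± 0.18, with limma adjusted p of 0.46, 0.54 and 0.663, and the positive signs of Krt8 and Krt18 turned under quantile normalization (-0.01 and -0.10) and without scaling (-0.18 and -0.19). The second Krt8 probe differed by 0.30 ± 0.16 (limma adjusted p = 0.279), with all KO arrays above the WT arrays. Sox9 differed by -0.22 ± 0.26 on its brightest probe and by -0.60 ± 0.28 on the probe with 10 spots (limma adjusted p = 0.212 for the latter). Prom1 differed by -0.99 ± 0.50 (limma adjusted p = 0.246). The median over the 9 genes other than Prom1 was -0.93, beside 0.03 over all genes, and for 5 of the 9 the KO arrays all lay below the WT arrays, as for 9.87% of all genes. This comparison shares the WT DEN + PB arrays with the PB effect in WT.

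Mice of 1 group also differed from each other, and these deviations from the group mean were compared between the markers. Over the 16 arrays, 36 of the 45 pairs among the 10 genes had a positive correlation of deviations, with a median r of 0.36. The highest were Krt7 with Epcam (r = 0.816), Krt7 with Krt19 (r = 0.768) and Krt7 with Spp1 (r = 0.765). Among 7 genes chosen after these values were seen (all but Krt8, Krt18 and Krt23), 21 of 21 pairs were positive, from 0.208 to 0.816. Without WT DEN replicate 3, 34 of the 45 pairs were positive with a median r of 0.29, and the 21 pairs ranged from 0.0656 to 0.790. Each of these 7 was above its group mean on WT DEN replicate 3, WT DEN + PB replicate 3, KO DEN replicate 2 and KO DEN + PB replicate 4, and below it on WT DEN replicate 1 and KO DEN + PB replicate 2. Krt8 correlated most with Krt18 (r = 0.684), and with the other genes its r was as low as -0.547. These points share arrays and scaling, and pairs of other genes were not examined. The correlations are given as a description and are not shown to be particular to the markers.

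**Figure D3:**
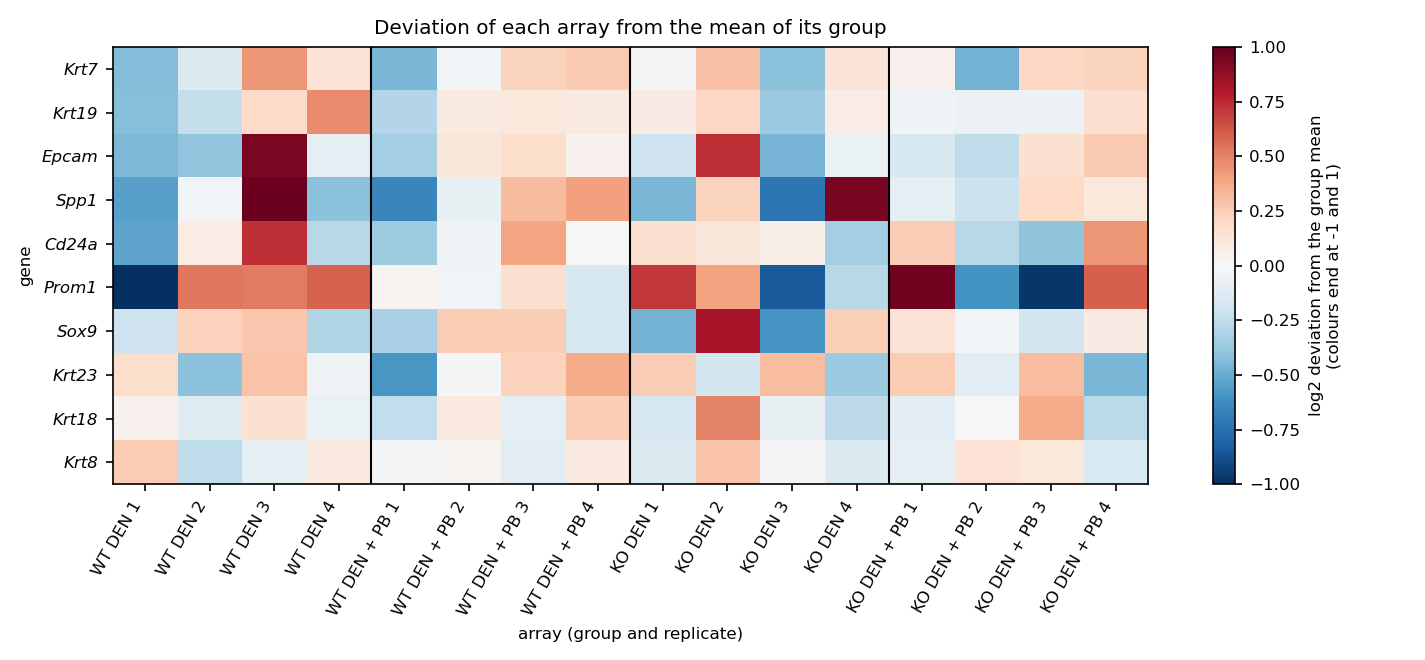
Log2 deviation of each of the 16 arrays from the mean of its own group, for the 10 genes, with red above and blue below the mean and colours ending at -1 and 1. Columns such as WT DEN 3 (red) and WT DEN 1 (blue) run through Krt7, Krt19, Epcam, Spp1, Cd24a and Prom1, while Krt8, Krt18 and Krt23 are above the mean on WT DEN 1.

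Of 13277 other genes ranked by the likeness of their pattern to Krt19 over the 16 arrays, Krt7 was the first (Pearson r = 0.914, Spearman rho = 0.844). It was followed by Syt7, a synaptotagmin (0.884), St14, an epithelial serine protease (0.867), Ltbp3, a latent TGF-beta binding protein (0.866), and Bicc1, an RNA-binding protein of duct and tubule epithelium (0.860). Of the other markers, Prom1 ranked 30th (r = 0.753), but it passed the filter only through WT DEN + PB, where it was highest. Epcam ranked 110th (r = 0.641) and Spp1 113th (0.640). The r was 0.514 for Cd24a, 0.348 for Krt8, 0.291 for Krt23, 0.236 for Krt18 and -0.055 for Sox9. The r values include the differences between groups.

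Other genes of the biliary epithelium were read from a list of 22, of which 13 had a tested probe. Under PB, 7 of the 13 were called lower in KO than in WT and 0 higher, where 5.84% of all genes were called lower. With normexp background correction most of these 7 calls were lost. Over all probes, those called lower in this comparison went from 1128 to 32 of 24457 in that setting. Differences were negative for 10 of the 13, with a median of -0.76. Tspan8, a tetraspanin of epithelial surfaces, was 4.14-fold lower (-2.05 ± 0.27; limma adjusted p = 0.000364), Bicc1 2.27-fold (-1.18 ± 0.22; limma adjusted p = 0.00384) and Cldn7, a tight junction claudin, 2.23-fold (-1.16 ± 0.20; limma adjusted p = 0.00212). Mmp7, a matrix protease, was well above background on 4 of 4 WT and 0 of 4 KO arrays and at least 2.13-fold lower. That WT group alone sufficed for Mmp7 to pass the filter, so its direction gives no support to the count. Bicc1 was also the 1 gene of the list called higher with PB in WT (1.03 ± 0.22; limma adjusted p = 0.0364), where 0.654% of all genes were. Pkhd1, which encodes fibrocystin of the primary cilium, was the 1 called lower with PB in KO (-0.81 ± 0.18; limma adjusted p = 0.0257), where 116 of 13303 genes were. Differences were positive for 10 of the 13 in WT (median 0.43) and negative for 11 of the 13 in KO (median -0.19). In WT the summed level of the list was 34.9 to 52.2 under DEN and 36.4 to 50.03 with PB. Under DEN alone 0 of the 13 were called between genotypes by limma, with 6 differences positive and 7 negative. An unadjusted p under 0.05 was found for 6 of the 13, beside 2419 of 13303 over all genes. The markers Krt7, Krt19, Epcam and Cd24a and these 7 genes were called lower in the same comparison. The list was written with earlier results of these data known, so its count gives no independent support to the markers.

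Of 14 progenitor and ductular reaction genes, 11 were tested and 2 were called under PB, both lower in KO: Lgals3 (-1.08 ± 0.19; limma adjusted p = 0.0031) and Vim (-0.81 ± 0.18; limma adjusted p = 0.0133), which macrophages and mesenchymal cells also express. The median of the list was 0.19, and -0.15 without scaling of the arrays. Notch and YAP signalling set biliary fate, and 20 of 24 such genes were tested, with 2 called lower and 0 called higher in KO under PB, near the 7.6% of all genes called in either direction. Differences were negative for 11 of the 20 and positive for 9, with a median of -0.04. Hey1, a Notch target, was 2.18-fold lower in KO under PB (-1.13 ± 0.24; limma adjusted p = 0.00885). Ankrd1, a YAP target, was at least 5.09-fold lower in this comparison, with 4 of 4 WT and 0 of 4 KO arrays well above background. As for Mmp7, that WT group alone sufficed for the filter, so the direction of Ankrd1 gives no support to the count. Under DEN, Hes1, another Notch target, was the 1 gene of the 20 called, where 2.76% of all genes were called in either direction. Hes1 was lower in KO by 1.64 ± 0.33 on the log2 scale (limma adjusted p = 0.0138), while 13 of the 20 differences were positive and 7 negative (median 0.12). The Notch ligand Dll4 rose with PB in both genotypes, by 1.31 ± 0.19 in WT and 1.15 ± 0.19 in KO (limma adjusted p = 0.00138 and 0.00327). Dll4 was the 1 gene of the 20 called in each, where 0.654% of all genes were called higher in WT and 1.26% in KO. Of the 20 differences, 13 were positive and 7 negative in WT (median 0.06), and 6 positive and 14 negative in KO (median -0.22). Of 34 other keratins 6 were tested, and Krt79 alone was called: it rose with PB by 2.79 ± 0.53 in WT and 2.91 ± 0.53 in KO (limma adjusted p = 0.0172 and 0.0083), with 2 of 4 KO DEN arrays well above background. With normexp background correction most calls over the lists other than the markers were lost, as given in the section on processing.

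Markers of other cell types were also called in the comparison in which Krt7, Krt19, Epcam and Cd24a were lower. Under PB, 10 of 12 macrophage genes were called lower in KO (median -1.29), where 5.84% of all genes were, and the summed level of the list was 73.7 to 86.5 times the 75th percentile on WT arrays and 28.7 to 61.3 on KO arrays. Also called lower were 2 of 6 endothelial genes (35.9 to 42.8 against 18.8 to 22.3), 3 of 9 stellate cell genes (27.1 to 35.9 against 16.04 to 22.7) and 4 of 7 lymphocyte and granulocyte genes (6.79 to 7.82 against 2.80 to 4.80). With normexp background correction 2 of the 12 macrophage genes were called lower and the calls of endothelial, stellate cell and leukocyte genes were lost. Without outlying backgrounds, that setting called 8 macrophage, 2 endothelial, 3 stellate cell and 3 leukocyte genes lower. Of 11 hepatocyte genes 1 was called higher (Tat, 0.67 ± 0.19; limma adjusted p = 0.0418), where 1.76% of all genes were, and their summed levels were 1435 to 1729 in WT and 1776 to 2093 in KO. The hepatocyte median was 0.30, with 10 of 11 differences positive, and turned to -0.03 without scaling, with 5 of 11 positive and the Tat call lost. For PB in WT, 11 of the 11 hepatocyte differences were negative (median -0.27, beside -0.02 over all genes). For PB in KO, 6 were positive and 5 negative (median 0.01). The hepatocyte sums under DEN were 1650 to 2071 in WT and 1862 to 2018 in KO. Of the mesothelial, pancreatic acinar and erythroid genes none was called under PB by limma (3, 5 and 3 tested). An unadjusted p under 0.05 was found for 3, 1 and 2 of them, beside 3108 of 13303 over all genes. The mesothelial sum was under 0.5 on every array. The part of these lists in the lower marker levels was not tested. Under DEN, 5 of 12 macrophage and 2 of 6 endothelial genes were called lower in KO (1.74% of all genes), and of the 10 markers Krt23 was the 1 called. Mesothelial Msln was called higher in KO under DEN with 3 KO and 1 WT arrays above background, so no size is given. Without WT DEN replicate 3, 3 of the 12 macrophage genes were called lower, and the calls of Krt23, Msln and both endothelial genes were lost. With PB in KO, Ms4a1, S100a8 and S100a9 of the leukocyte list fell, by 1.30 to 1.42 on the log2 scale. The summed level of the other cholangiocyte genes was 36.4 to 50.03 in WT and 25.4 to 37.4 in KO under PB.

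**Figure D4:**
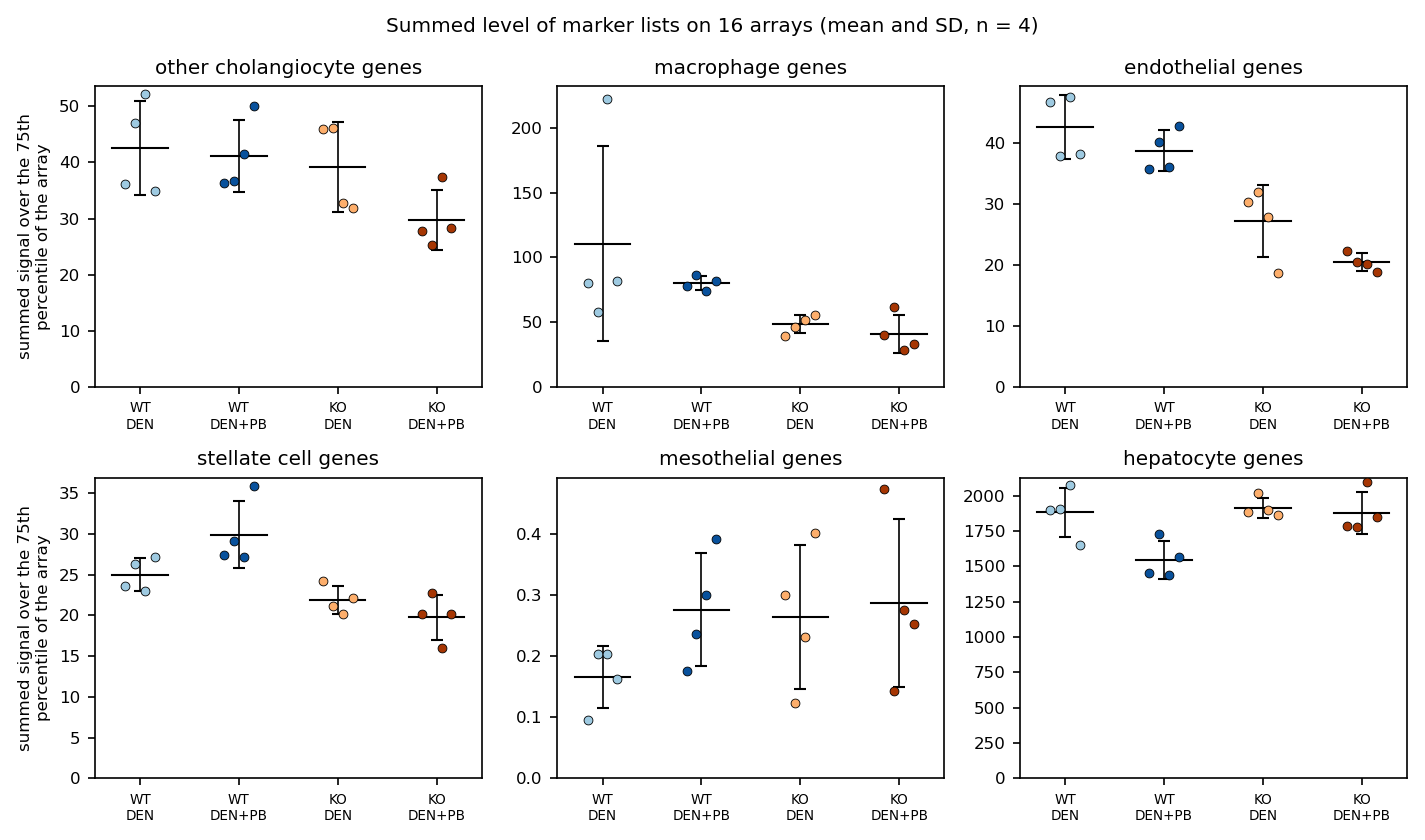
Summed signal of 6 marker lists on each array, in multiples of the 75th percentile of that array, with 1 point per mouse and mean and SD per group (n = 4). Under PB the macrophage, endothelial and stellate sums of KO lie below those of WT, the hepatocyte sums lie above, and WT DEN replicate 3 has the highest macrophage sum (223).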

How the data were processed

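Total RNA from 16 livers was labelled with Cy3 and hybridised to 1-colour whole mouse genome arrays. The deposited processed signal is an intensity from Agilent Feature Extraction 12, corrected by the authors' software for background and trends within the array and not scaled between arrays. The authors' series table holds intensity values that equalled the means of this signal over the spots of a probe to within 5e-04%. The normalization the study used before its own test is not given in the sources used here. All columns belonged to the 4 groups.

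Spots with an outlier mark were dropped (71 to 122 of 43379 per array), no spot was saturated, spots of a probe were averaged (245 of 41174 probes had 10), and the log2 signal minus the array's 75th percentile was used. A probe was tested if well above background on all 4 arrays of a group, which left 24457. RefSeq names matched 28223 probes (68.5%). No coordinates of the probes are given because the array was designed on another build, and those of the promoter windows come from the promoter table. A gene was read by its brightest probe. Limma 3.58.1 in R 4.3.3 fitted 4 group means to all 16 arrays, with Benjamini-Hochberg adjustment over all probes tested, and was tested on simulated data. A gene was called at adjusted p under 0.05 and 1.5-fold or more. Where every array of a group left a probe at background, the fold is a bound: the mean of the brighter group is set against, for each dim array, its faintest signal clear of background, or the value of the probe if that is larger. Exact permutation tests were two-sided over 70 assignments. Arrays lay on 4 slides, of which 1 held no KO DEN and 1 no WT DEN array.

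The genes named are all 10 markers with every probe, of each other list up to 4 called genes per comparison by size of change, the 5 genes most like Krt19, and Gadd45b. Pairs of deviations, and the genes named for their share in a count, were picked after the values were seen. Members and lists were chosen with earlier results of these data known. Of 10 alternatives, normexp was to start from the mean signal and used gMedianSignal and gBGMedianSignal with offset 50, because the mean was not in the files used.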

Additional observations from a re-analysis of the deposited data

Results flagged for a closer look

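Among 56 sets of 4 arrays (14 probes in 4 groups), 3 single arrays stood far from the other 3, by Dixon's test at the 95% level; chance alone gives about 5%. Krt19 was lowest on WT DEN + PB replicate 1 (-1.96, nearest -1.58), where it was still above all arrays of the other groups. Krt19 was highest on KO DEN + PB replicate 4 (-2.44, nearest -2.65), still below all WT DEN + PB arrays. The brighter Prom1 probe was at -7.44 on WT DEN replicate 1 (nearest -5.28), and without that array the PB difference of Prom1 in WT was 1.14.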

How the results depend on the processing

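Of the 8 calls of single markers, 54 of 80 values under the 10 alternatives kept the call and 26 lost it; without single arrays 111 of 128 kept it and 17 lost it. With normexp the number of markers called went from 2 to 0 for PB in WT, from 1 to 0 for PB in KO, from 1 to 0 for KO minus WT under DEN and from 4 to 1 under DEN + PB, and the calls over all other lists and comparisons from 49 to 3. Normexp without outlying backgrounds gave 0 for PB in WT, 0 under DEN and 1 under DEN + PB. No filter, no moderation, only the arrays compared, the series table without scaling and the slide as a block each gave 1 for PB in WT and 0 under DEN, and the series table brought PB in KO to 0. Without single arrays the counts were 1 to 2 for PB in WT (1 without WT DEN replicates 1 or 2 or WT DEN + PB replicates 2, 3 or 4) and 0 to 1 under DEN (0 without WT DEN replicates 1, 3 or 4, KO DEN replicates 1, 2 or 4, or replicate 2 of either PB group). The interaction could not be fitted on only the arrays compared. Normexp added an offset of 50, beside group means of the processed signal of 29.8 to 74.5 for Krt19 and 17.7 to 51.8 for Epcam. Calls lost under normexp are therefore not a measure of background correction alone. The part of the offset was not tested, and neither were other causes of these changes.

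Differences that were not called turned sign as follows. For PB in KO, normexp gave 0.0297 for Krt7, 0.0584 for Krt19 and 0.153 for Epcam, normexp without outlying backgrounds 0.0284, 0.0566 and 0.151, and the series table -0.10 for Krt8 and -0.13 for Krt18. For the interaction, normexp gave -0.0724 for Epcam and -0.23 for Prom1, and without outlying backgrounds -0.15 for Prom1. Under DEN, normexp gave -0.21 for Krt7, -0.19 for Krt19 and -0.53 for Prom1, without outlying backgrounds -0.0637 for Prom1, and the mean of probes -0.0289 for Sox9. Under DEN + PB, quantile normalization gave -0.0118 for Krt8 and -0.10 for Krt18, the series table -0.18 and -0.19, and normexp without outlying backgrounds 0.0898 for Prom1. Without single arrays, ranges that crossed 0 were -0.26 to 0.0283 (Krt7) and -0.31 to 0.10 (Epcam) for PB in KO, -0.11 to 0.18 (Krt18) for the interaction, and -0.16 to 0.31 (Sox9), -0.0643 to 0.58 (Spp1) and -0.29 to 0.54 (Prom1) under DEN. Without scaling, the median of all probes moved to -0.29 for PB in KO and for KO minus WT under DEN + PB.

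Replicate numbers did not pair the samples: deviations of same-numbered arrays correlated with r of -0.21 to 0.36, 6 of 24 over 0.1. With the replicate block Krt19 differed by 1.27 for PB in WT (limma adjusted p = 0.00347) and Cd24a by -1.72 under DEN + PB (0.00293); it changed no call of a marker. Signal over background limits Prom1 and the dimmest Krt7 and Sox9 probes.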
